A study of Mus musculus with 23 samples.

Results

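The genes described here encode receptors for extracellular nucleotides and adenosine in mouse liver: P2ry2, P2ry4, P2ry6, P2rx4, P2rx7 and Adora3. The rule named 9 genes of the P2Y, P2X and adenosine receptor families, and 6 of them had a probe set whose platform annotation gives exactly 1 symbol. Adora1, Adora2a and Adora2b were not analysed here. The 6 genes were read by 8 of the 38385 probe sets, and where a gene had several, the brightest by mean log2 intensity over the 23 arrays stands for it. P2rx7 had 3 probe sets and each of the others had 1.

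ATP and UTP that leave a cell are cut step by step outside it to ADP, UDP, AMP and adenosine, and ADP, UDP and adenosine have receptors of their own. P2Y receptors couple to G proteins, P2X receptors are ion channels opened by ATP, and adenosine receptors raise or lower cAMP. In liver, hepatocytes, bile duct cells, resident macrophages and endothelium carry different members, and extracellular ATP is known there as a signal for calcium release, bile secretion and inflammation.

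The livers came from mice that lacked P2ry13 (also called GPR86, an ADP receptor of the same family) and from wild-type mice of both sexes: 6 female knockout (KO), 6 female wild-type (WT), 6 male KO and 5 male WT, with 1 array per sample. Age, strain and how the deletion was made were not described in the labels, nor whether a sample pools animals. The question was how ablation of P2ry13 changes liver expression. Values are log2 intensities, and the number of arrays per group limits their precision. P2ry13 checked the genotype labels, with 5.06 to 5.34 in the 12 KO arrays and 5.80 to 6.42 in the 11 WT arrays. The brightest Xist probe set and Eif2s3y separated the sexes in every array, and the dimmest of the 3 Xist probe sets did not. Any 2 arrays correlated at 0.983 to 0.995 across probe sets. None of the hepatocyte markers (6 of 9 measured) was at background on every array of a group. On the 12 female arrays, 4 probe sets of Y-linked genes, which have no transcript there, read 2.53 to 3.69, and this range is called background below. A probe set may have a higher floor of its own: the brightest of Xist read 4.14 to 5.22 in the males. That of P2ry13 read 5.06 to 5.34 in the KO arrays, and how much transcript remained there is not known.

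P2rx4 and P2ry6 read above background on all 23 arrays. P2ry2, P2ry4, Adora3 and the brightest P2rx7 probe set each read at or under its top on 1 of 23 arrays and at most 4.92 on the others. For these 4 genes the values do not show how much of the signal was transcript. The same holds for P2ry6 if its own floor is as high as the male reading of Xist or the KO reading of P2ry13.

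The starts of P2rx4 and P2ry4 are shown because these genes differed between the sexes in opposite directions. Each is the RefSeq sequence from 250 bases before to 50 bases after the gene's start (GRCm38.p6), 5′ to 3′ on the gene's strand, with the GC box (letters GGGCGG, on either strand) in capitals:
P2rx4 (chr5:122707294-122707593, strand +): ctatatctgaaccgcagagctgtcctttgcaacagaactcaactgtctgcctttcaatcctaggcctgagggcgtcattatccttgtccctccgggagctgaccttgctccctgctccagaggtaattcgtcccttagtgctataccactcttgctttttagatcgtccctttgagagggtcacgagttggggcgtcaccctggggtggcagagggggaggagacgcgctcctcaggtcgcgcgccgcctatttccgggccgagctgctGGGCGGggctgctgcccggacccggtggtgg
P2ry4 (chrX:100594820-100595119, strand -): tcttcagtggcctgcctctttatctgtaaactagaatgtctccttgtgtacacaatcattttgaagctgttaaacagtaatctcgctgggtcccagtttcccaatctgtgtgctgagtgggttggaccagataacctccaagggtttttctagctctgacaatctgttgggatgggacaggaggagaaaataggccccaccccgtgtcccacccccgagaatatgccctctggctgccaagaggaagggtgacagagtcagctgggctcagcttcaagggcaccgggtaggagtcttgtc
The P2rx4 window held 18 CpG dinucleotides and 60.3% G and C, and the P2ry4 window held 4 and 51.7%, beside medians of 7 and 52.7% over 32851 promoter windows of the same length. The P2rx4 window held 1 GC box and the P2ry4 window none, and 35.7% of all windows had at least 1. Neither window held the letters of the STAT site TTCNNNGAA (8.3% of all windows), of the estrogen response element, GGTCA and TGACC with 3 bases between them (0.07%), or of the TATA box TATAAA (13.6%), on either strand. The 1 GC box of P2rx4 was the only match in these windows, so no marked stretches overlap. A match or its absence describes these letters only. None of the 7 windows of the 5 receptors with promoter sequence, P2ry2 among them, held the STAT, estrogen element or TATA letters. P2ry6 had no promoter sequence here.

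Knockout of P2ry13 was not accompanied by a called change in any of the 6 receptors, and at most 0.0808% of all probe sets were called in such a comparison. Averaged over genotypes, 3 of the 6 differed between females and males, where 10.5% of all probe sets were called. Between KO and WT, the receptor genes differed by -0.12 to 0.14 on the log2 scale in females and by -0.14 to 0.26 in males. P2rx4, an ATP-gated channel, was lower in females in both genotypes, and P2ry6, the UDP receptor, was higher in both. P2ry4, a pyrimidine and ATP receptor, was higher in WT females than in WT males.

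**Figure D1:**
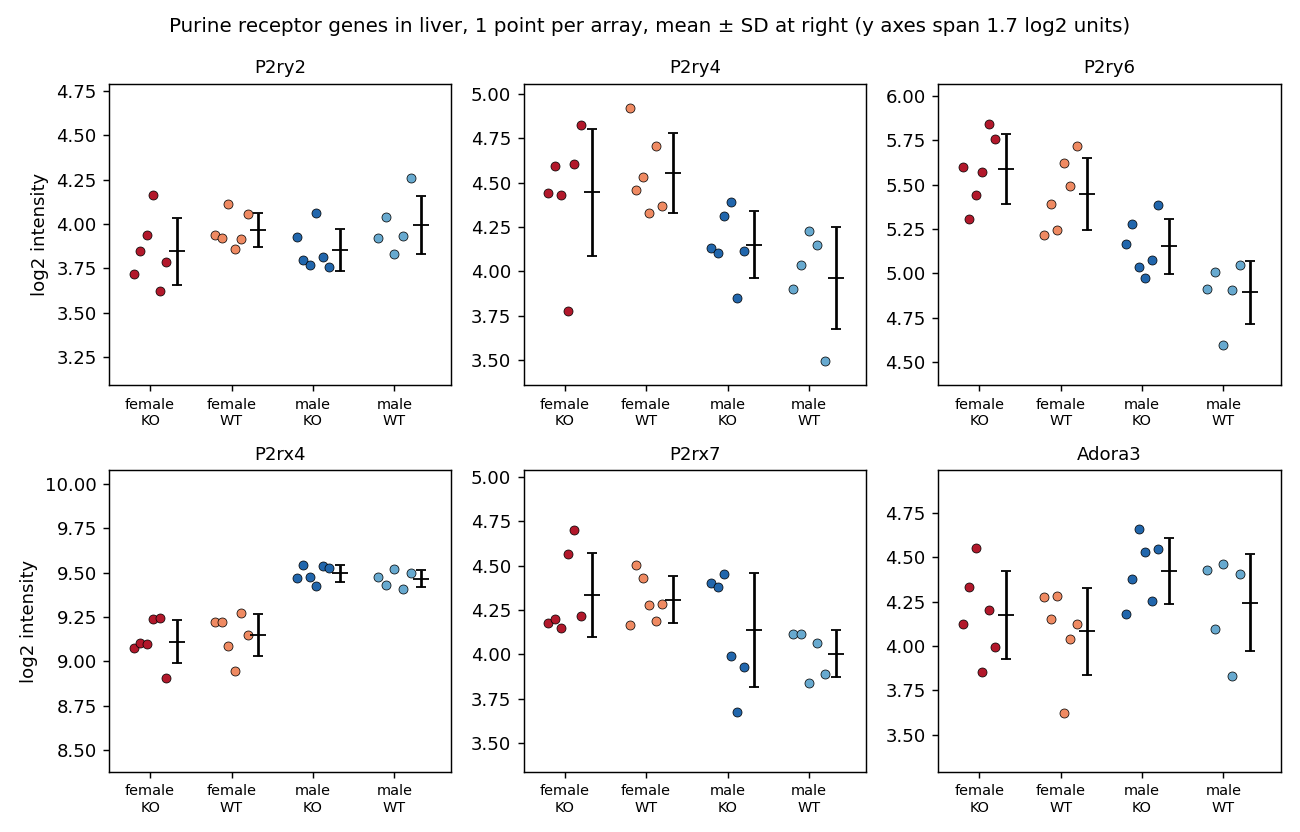
Log2 intensity of the 6 receptor genes on each of the 23 arrays by group, with 1 point per array and the group mean ± SD (bar) to the right of the points. For P2rx4 all 12 female arrays (8.91 to 9.27) lie below all 11 male arrays (9.41 to 9.55), while KO and WT points of each sex overlap in every panel.

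P2rx4 encodes a channel that passes sodium and calcium when ATP binds, and it is known from macrophages and from lysosomal membranes. It read 8.91 to 9.24 with a median of 9.10 in female KO and 8.94 to 9.27 with a median of 9.18 in female WT. It read 9.42 to 9.55 with a median of 9.50 in male KO, and 9.47, 9.43, 9.52, 9.41 and 9.50 in male WT replicates 2 to 6. No female array reached the lowest male array, and KO and WT arrays of the same sex overlapped. The female arrays averaged 9.13 ± 0.12 (SD, n = 12) and the male arrays 9.48 ± 0.05 (SD, n = 11), a gap larger than the spread in either sex. P2rx4 was lower in females by a log2 difference of -0.35 (SE 0.05, 1.28-fold, limma, adjusted p = 4.58e-06) averaged over genotypes. The difference was -0.38 (SE 0.06) in KO and -0.32 (SE 0.07) in WT (limma, adjusted p = 0.000236 and 0.0046). In order of level the groups ran male KO 9.50, male WT 9.47, female WT 9.15 and female KO 9.11, and only the step from male WT to female WT exceeded the spread within groups. Complete separation of this kind, all females below all males, was seen for 168 of 38385 probe sets (0.438%).

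P2ry6 encodes the G protein-coupled receptor for UDP, known to release calcium from stores and to trigger cytokine release in macrophages. It read 5.31 to 5.84 with a median of 5.58 in female KO and 5.22 to 5.72 with a median of 5.44 in female WT. It read 4.97 to 5.38 with a median of 5.12 in male KO, and 4.91, 5.00, 4.59, 4.91 and 5.05 in male WT. All 6 female WT arrays lay above all 5 male WT arrays, and 5 of 6 female KO arrays lay above all 6 male KO arrays. Of all probe sets, 2.18% had every female WT array above every male WT array, and 4.34% had at least 5 of 6 female KO arrays above every male KO array. P2ry6 was higher in females by 0.49 (SE 0.07, 1.41-fold, limma, adjusted p = 2.09e-05) averaged over genotypes. The log2 difference was 0.44 (SE 0.10) in KO and 0.55 (SE 0.11) in WT (limma, adjusted p = 0.00782 and 0.00143). The group means ran in the order female KO 5.59, female WT 5.45, male KO 5.15 and male WT 4.89.

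P2ry4 encodes a receptor that in rodents answers both UTP and ATP, and its gene lies on the X chromosome. It read 3.77 to 4.82 with a median of 4.52 in female KO and 4.33 to 4.92 with a median of 4.50 in female WT. It read 3.85 to 4.39 with a median of 4.12 in male KO, and 3.90, 4.04, 4.23, 4.15 and 3.50 in male WT. Female KO replicate 4, at 3.77, lay below every male KO array, while the 5 other female KO arrays lay above them all, and WT females and males did not overlap. Of all probe sets, 2.18% had every female WT array above every male WT array. At least 5 of 6 female KO arrays lay above every male KO array for 4.34%. P2ry4 was higher in females by 0.44 (SE 0.10, 1.36-fold, limma, adjusted p = 0.00389) averaged over genotypes, and by 0.59 (SE 0.15, limma, adjusted p = 0.0167) in WT. In KO the log2 difference was 0.29 with a 95% interval of 0.01 to 0.58 (limma, adjusted p = 0.296). Without male WT replicate 6 the WT call was lost (0.48, limma, adjusted p = 0.0714), and without female KO replicate 4 the KO difference passed (0.43, limma, adjusted p = 0.0443). The difference between the genotypes in this sex gap, KO minus WT, was -0.30 (95% interval -0.71 to 0.12, limma, adjusted p = 0.98), so a change of the gap with genotype was not shown.

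P2ry2, the receptor for ATP and UTP that is known for driving calcium release and chloride secretion in epithelia, showed no such gap. It read 3.63 to 4.16 with a median of 3.82 in female KO and 3.86 to 4.11 with a median of 3.93 in female WT. It read 3.76 to 4.06 with a median of 3.81 in male KO, and 3.92, 4.04, 3.83, 3.93 and 4.26 in male WT. The ranges of the sexes overlapped, and the females minus males difference was -0.02 with a 95% interval of -0.14 to 0.11 (limma, adjusted p = 0.896). In the gene order of chromosome 7, P2ry2 and P2ry6 are neighbours with 0 measured genes between them, and their sex differences of -0.02 and 0.49 were unlike, without a test of that contrast.

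P2rx7 encodes the ATP channel that opens at high ATP and starts inflammasome activation in macrophages. Its 3 probe sets are annotated to 3 different RefSeq transcripts. The brightest read 4.15 to 4.70 with a median of 4.21 in female KO and 4.16 to 4.50 with a median of 4.28 in female WT. It read 3.67 to 4.45 with a median of 4.19 in male KO, and 4.11, 4.12, 3.84, 4.07 and 3.89 in male WT. WT females and WT males did not overlap, as for 2.18% of all probe sets, and KO females and KO males did. The sex difference was 0.20 in KO and 0.30 in WT, and neither was called (limma, adjusted p = 0.448 and 0.196). The averaged sex difference of 0.25 (95% interval 0.07 to 0.43) missed the threshold over all probe sets (limma, adjusted p = 0.0618). The second probe set lay at or under the top of background on 15 of 23 arrays and gave -0.14 (limma, adjusted p = 0.163). The third lay there on 23 of 23 arrays and gave -0.02 (limma, adjusted p = 0.863). The mean of the 3 gave 0.03. P2rx7 and P2rx4 are neighbours on chromosome 5, with 0 measured genes between them.

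**Figure D2:**
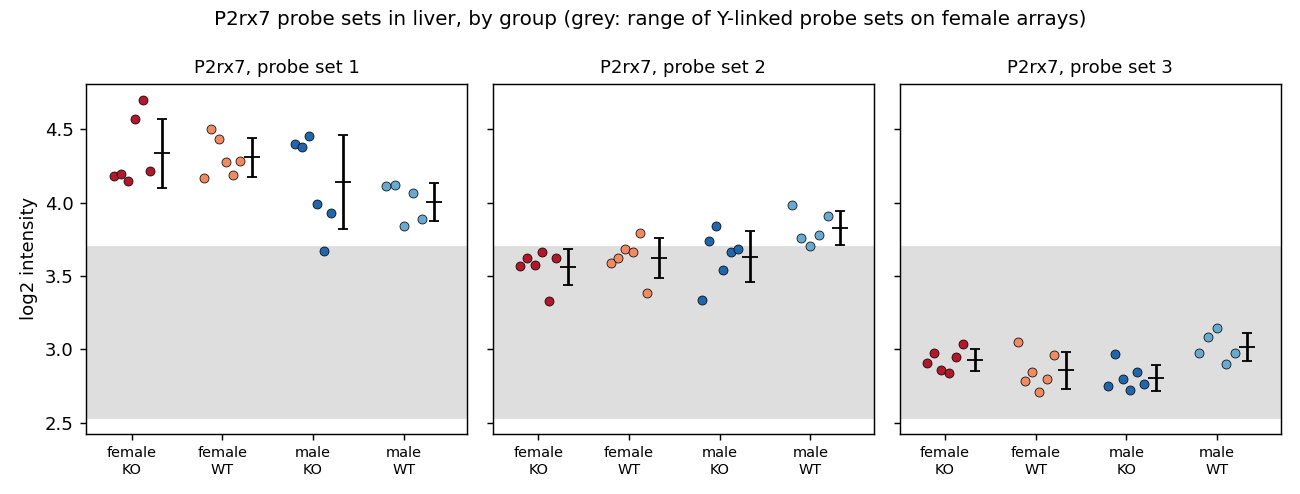
Log2 intensity of the 3 P2rx7 probe sets on each array by group, with 1 point per array, group mean ± SD, and the background range of 2.53 to 3.69 in grey. Probe set 1 lies above the grey band on 22 of 23 arrays, probe set 2 straddles its top, and probe set 3 lies inside it on all 23.

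Adora3 encodes the A3 adenosine receptor, which lowers cAMP and is known from mast cells and other leukocytes. It read 3.86 to 4.55 with a median of 4.16 in female KO and 3.62 to 4.28 with a median of 4.14 in female WT. It read 4.18 to 4.66 with a median of 4.45 in male KO, and 4.43, 4.1, 4.46, 3.83 and 4.41 in male WT. The ranges overlapped in every pair of groups. Females differed from males by -0.21 (95% interval -0.39 to -0.02), which did not pass over all probe sets (limma, adjusted p = 0.164).

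Across the 6 genes, 2 were called higher and 1 lower in females averaged over genotypes (P2ry4, P2ry6 and P2rx4), where 10.5% of all probe sets were called. Of all probe sets, 5.96% were called higher and 4.55% lower. In KO alone 1 was higher and 1 lower, where 4.85% of all probe sets were called, 3.21% higher and 1.64% lower. In WT alone 2 were higher and 1 lower, where 4.25% were called, 2.54% higher and 1.71% lower. The median of the 6 averaged differences was 0.12, beside -0.01 over all probe sets. A moderated F test over the 4 groups passed for P2rx4, P2ry6 and P2ry4 (limma, adjusted p = 6.65e-05, 0.000142 and 0.0273) and called 6.49% of all probe sets. By a reading of the rule in the design text, a plain analysis of variance with an unadjusted p under 0.05 and a difference over 20%, the same 3 genes passed, as did 11.6% of all probe sets, with the highest and lowest group means taken for the difference. The design text does not say how its difference was computed, and the 4454 probe sets that passed this reading are more than the transcripts it counts. Dimness limits what such counts can show for P2ry2, P2ry4, P2rx7 and Adora3.

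None of the 6 genes was called between KO and WT (limma) in females, in males or as the average of both sexes, where 0.0547%, 0.0313% and 0.0808% of all probe sets were. At an unadjusted p under 0.05, 0 of 6 genes passed in females, 1 in males and 2 in the average, and 5.87%, 6.14% and 6.91% of all probe sets did. The interval for P2rx4 was the narrowest, with -0.04 (95% interval -0.17 to 0.10) in females and 0.03 (-0.11 to 0.17) in males. P2ry6 had the largest difference of the 6, with 0.14 (-0.07 to 0.35) in females, 0.26 (0.04 to 0.48) in males and 0.20 (0.05 to 0.35) on average (limma, adjusted p = 0.902, 0.739 and 0.643). In males, 4 of 6 KO arrays lay above all 5 WT arrays for P2ry6, and 4.98% of all probe sets had at least that many. P2ry2 read -0.12 (-0.29 to 0.05) in females and -0.14 (-0.32 to 0.04) in males (limma, adjusted p = 0.899 and 0.845), and 4 of 6 KO arrays lay below all WT arrays in each sex. At least that many did for 3.2% of all probe sets in females and 4.85% in males. P2ry4 read -0.11 (-0.40 to 0.18) in females and 0.19 (-0.11 to 0.49) in males, and P2rx7 0.03 (-0.22 to 0.27) and 0.13 (-0.12 to 0.39). The interaction, KO effect in females minus that in males, called 0 of 6 genes by limma and 0.0104% of all probe sets. At an unadjusted p under 0.05 it took in 0 of 6 genes and 5.14% of all probe sets.

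Adora3 lies on chromosome 3, as P2ry13 does, with 427 measured genes between them in the gene order of GRCm38.p6. It read 0.09 (-0.16 to 0.35) higher in female KO than in female WT and 0.18 (-0.09 to 0.45) higher in male KO than in male WT (limma, adjusted p = 0.951 and 0.876). The 3 nearest measured genes on each side were Rap1a, Gm5547 and Tmigd3, and I830077J02Rik, Wdr77 and Ovgp1. Their averaged KO minus WT differences lay between -0.05 and 0.12, and none was called (limma, adjusted p from 0.791 to 0.957). The annotated span of Tmigd3 overlaps Adora3, so the probe sets of these 2 genes may not be separate.

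**Figure D3:**
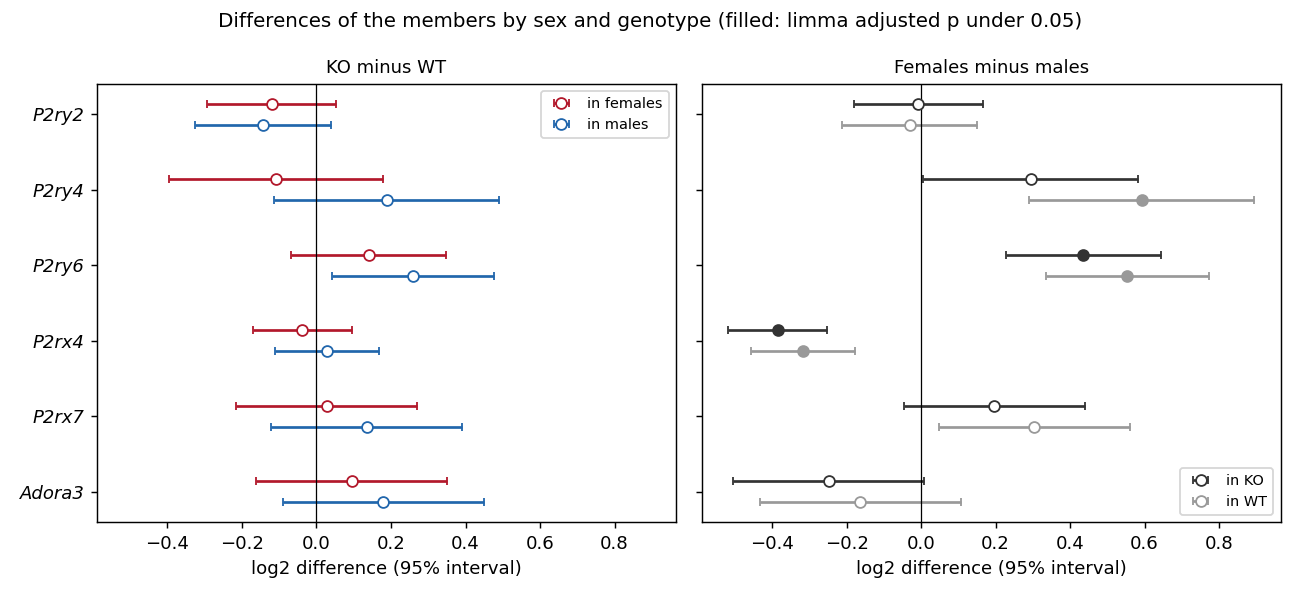
Log2 differences of the 6 receptor genes with 95% intervals from limma, KO minus WT at left (females red, males blue) and females minus males at right (KO dark, WT light), filled where the adjusted p is under 0.05. No KO minus WT point is filled, and P2rx4 lies left of 0 while P2ry6 lies right of 0 in both genotypes.

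Cell markers moved with sex beside these receptors. For the counts of this and the lists below, 5.96% of all probe sets were called higher and 4.55% lower in females, averaged over genotypes. Between KO and WT, averaged over sexes, 0.0808% were called. Of 11 measured Kupffer cell markers (12 fixed), the markers of the resident liver macrophage, 10 were higher in females and 0 lower, with a median of 0.50. Adgre1 was higher by 0.61, Timd4 by 0.65 and Vsig4 by 0.55 (limma, adjusted p = 3.6e-08, 6.13e-07 and 6.77e-07). Their summed log2 level was 93.9 to 98.1 in female KO and 93.4 to 96.4 in female WT, and 88.0 to 92.5 in male KO and 87.9 to 91.3 in male WT. No marker was at background on every array of a group. P2ry6 (0.49) and P2ry4 (0.44) ran the same way as these markers, and P2rx4 (-0.35) the opposite way. In whole liver RNA, fewer cells of a type and less RNA per cell cannot be told apart. The part of the macrophage markers in the sex differences of the receptors was not tested. Between KO and WT, 0 of the 11 were called by limma, and their averaged median was 0.03.

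Other marker lists were read the same way. Of 8 endothelial markers, 5 were higher in females, among them Fcgr2b (0.32) and Cdh5 (0.36), and of 8 stellate cell markers 4 were, among them Col3a1 (0.41) and Col1a1 (0.36). Of 9 lymphocyte markers, 3 were higher (Nkg7, Cd3g and Cd3d) and Cd4 was lower. Of 6 monocyte and neutrophil markers, 1 was higher (S100a8), and 2 lay within background in every group. Of 5 mast cell markers, 0 were called by limma, with 1 or 2 within background per group, and of 5 bile duct markers only Sox9 was (-0.34). Of 6 hepatocyte markers Hpd alone was higher, by 0.13. Alas2, the 1 measured erythroid marker and the first enzyme of heme synthesis in red cell precursors, was 6.69-fold lower in females. Of 4 fat and pancreas markers 1, Cela1, was lower (-0.47). In KO against WT, none of these markers was called by limma. In every group, 1 of the 8 stellate cell and 1 of the 5 bile duct markers lay within background. So did 1 of the 9 lymphocyte markers in each male group, and 1 or 2 of the 4 fat and pancreas markers outside female KO.

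Of 10 further P2 receptors measured, 3 were higher in females and 0 lower, with a list median of -0.04, and 2 lay within background in every group. P2ry1, an ADP receptor, read 6.51 ± 0.28 in female KO and 6.30 ± 0.36 in female WT (SD, n = 6 each), and 5.96 ± 0.41 in male KO and 5.73 ± 0.34 in male WT (SD, n = 6 and 5). It was higher in females by 0.56 (SE 0.13, limma, adjusted p = 0.00406). P2ry12, the platelet ADP receptor, was higher by 0.28 and P2ry14, the UDP-sugar receptor, by 0.26 (limma, adjusted p = 0.0222 and 0.0323). Between KO and WT, P2ry13 was called lower and the other 9 were not called.

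Nt5e, the surface enzyme CD73 that turns AMP into adenosine, read 9.62 ± 0.18 in female KO and 9.36 ± 0.24 in female WT, and 6.42 ± 0.24 in male KO and 6.94 ± 0.24 in male WT (SD). It was 7.02-fold higher in females (log2 difference 2.81, SE 0.09, limma, adjusted p = 9.65e-20). Slc29a1, an equilibrative nucleoside transporter that carries adenosine across the membrane, was higher by 0.40 (SE 0.06, limma, adjusted p = 8.3e-06). These were the 2 called among 9 measured genes of adenosine supply and uptake (12 fixed), and 0 of the 9 were called by limma between KO and WT. Per group, 2 or 3 of the 9 lay within background on every array. Of 6 genes of ATP release, the connexin gene Gja1 was higher in females by 0.69 and the pannexin gene Panx2 lower by a difference of -0.19 (limma, adjusted p = 1.85e-05 and 0.0338).

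Downstream of P2ry2, P2ry4 and P2ry6, 14 genes of Gq signalling and calcium release were measured (16 fixed). In females 1 was higher and 2 were lower, and the list's median was 0.04. In every group, 1 of the 14 lay within background on all arrays. Prkca, a calcium-dependent protein kinase C, was higher by 0.50, while Gna14, a G alpha subunit of the Gq class, read -0.70 and the phospholipase Plcb1 -0.38 (limma, adjusted p = 0.000161, 1.28e-05 and 0.000346). Of 22 measured genes of adenylyl cyclase and cAMP, the pathway of adenosine receptors (23 fixed), 4 were higher and 2 lower. Of all probe sets, 5.96% were called higher and 4.55% lower. Among the called genes were the kinase subunit Prkacb (0.28), the cAMP phosphodiesterase Pde4b (0.47) and the regulatory subunit Prkar2a (-0.23) (limma, adjusted p = 0.000487, 0.00186 and 0.000867). Per group, 3 or 4 of the 22 lay within background on every array.

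In the list for the P2rx7 inflammasome, 3 of 8 measured genes (9 fixed) were higher in females and 0 lower. The protease Casp1 was higher by 0.36, Txnip by 0.21 and the pore protein Gsdmd by 0.21 (limma, adjusted p = 0.000206, 0.0203 and 0.0346). Of 8 measured genes of receptor desensitization (9 fixed), 4 were higher and 1 lower. Rgs2, which speeds the switch-off of Gq, was higher by 0.50 and the arrestin Arrb1 by 0.26, and the receptor kinase Grk5 read -0.59 (limma, adjusted p = 0.000116, 0.00752 and 3.22e-07). Between KO and WT, 0 genes of the Gq, cAMP, inflammasome and desensitization lists were called by limma, where at most 0.0808% of all probe sets were.

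**Figure D4:**
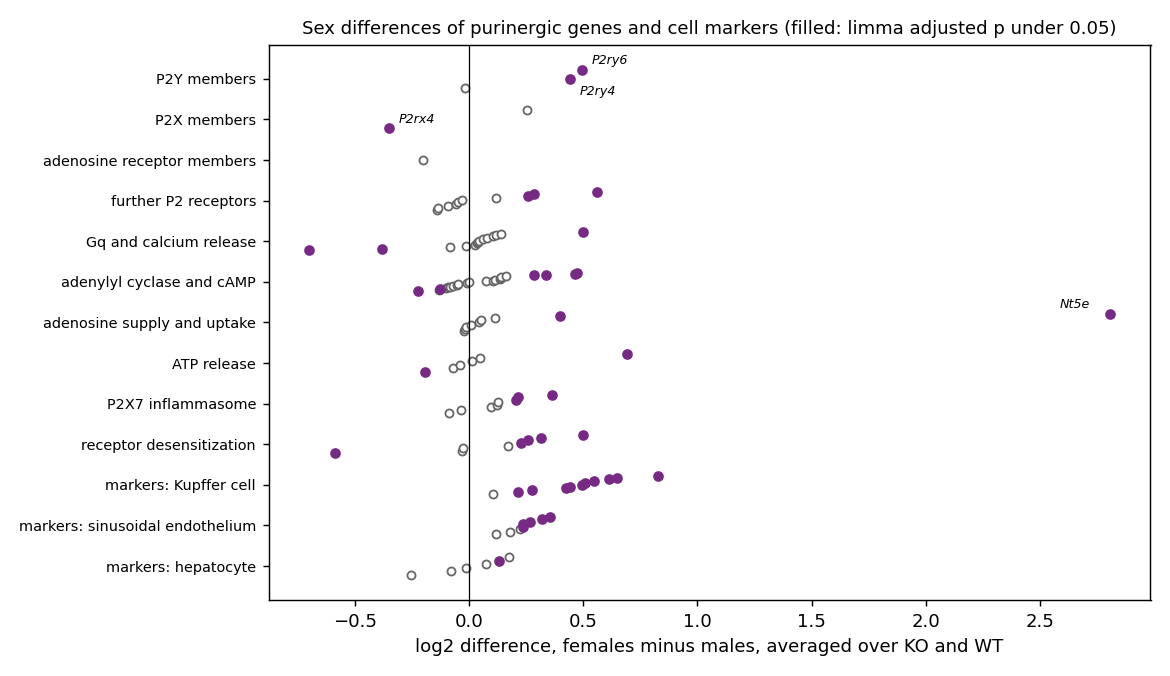
Log2 difference between females and males, averaged over KO and WT, for each measured gene of the receptor, pathway and marker lists, filled where limma's adjusted p is under 0.05. Nt5e stands at 2.81, P2ry6 and P2ry4 near 0.5 and P2rx4 at -0.35, and the Kupffer cell markers all lie right of 0.

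Likeness between genes was measured as Pearson's correlation over the 23 arrays after each group's mean was subtracted, against 16690 other named genes. The 3 genes most alike were picked as the highest of that number, so their values describe these arrays only. For P2rx4 they were Arvcf (r = 0.81, Spearman's rho = 0.73), Rogdi (0.79 and 0.65) and Vcpkmt (0.78 and 0.77). For P2ry6 they were Selenon (0.76 and 0.74), Nrros (0.76 and 0.74) and Trps1 (0.72 and 0.75). For P2ry4 they were Zfp871 (0.86 and 0.85), Sgms2 (0.80 and 0.81) and Pcgf3 (0.78 and 0.77). For P2rx7 they were Flot1 (0.82 and 0.76), Josd1 (0.82 and 0.86) and Gnai2 (0.78 and 0.86). For P2ry2 they were Fbxw13, Tdgf1 and Fam189a2 (r from 0.73 to 0.76), and for Adora3 Rhbdl1, Dtx2 and Cldn7 (r from 0.70 to 0.74). Among the genes most like P2ry6, Nrros and Selenon were higher in females as well, by 0.34 and 0.27 (limma, adjusted p = 0.00132 and 0.0359). Among those of P2rx4, Vcpkmt was higher in females by 0.29 (limma, adjusted p = 0.0173), while P2rx4 was lower. Among the 6 receptors themselves, the within-group correlations ran from -0.53, for P2ry2 with P2ry4, to 0.30, for P2rx4 with Adora3.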

How the data were processed

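The deposited values are linear intensities per probe set, made by the authors with RMA per the submitters' processing notes, with no version named there. The table holds 38385 probe sets on 23 arrays, with array medians of 19.5 to 21.1, and was converted to log2 with no further scaling. Groups and replicate numbers came from sample titles (male WT is numbered 2 to 6). The labels do not say that samples are separate animals, so p-values measure only the spread between these samples.

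Of the probe sets, 24478 had 1 symbol, 65 several, and 13842 are unnamed here. A model with a mean for each group was fitted across the arrays with limma 3.58.1 in R 4.3.3 (19 residual and 7.61 prior degrees of freedom), with Benjamini-Hochberg adjustment across the whole table and 0.05 as threshold. The script was tested on simulated data with the spread of these arrays and changes added in female KO. It called 28% of changes of 0.3 log2 units, 76% of those of 0.5 and 100% of those of 1 or 2. The receptors differed by -0.12 to 0.14 in that comparison, so 0 calls there do not show that small changes were absent. Sex and genotype averages weight both strata equally. Coordinates, gene order and promoters (5 of the 6 genes) came from RefSeq GRCm38.p6. The receptors and lists were chosen with earlier results of these data known. All receptors are named, as are the 3 genes most alike to each by correlation, and list genes called between KO and WT or, between the sexes, up to the 3 of smallest p. Cd4 was named after its value was seen. Alternatives covered normalization, dim probe sets, array weights, an intensity trend, a replicate block, the arrays entering the fit, the use of several probe sets per gene, a plain analysis of variance, and leaving out each array. Same-numbered arrays of different groups correlated over 0.1, after subtracting group means, in 3 of 33 pairs (-0.17 to 0.21), so the numbers were not taken as pairs.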

Additional observations from a re-analysis of the deposited data

Results flagged for a closer look

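Adora3 in female WT replicate 4 read 3.62, below the other 5 female WT arrays, with a gap to its neighbour of 0.632 of the group's range. The 95% critical value of Dixon's test for 6 samples is 0.625. It was the only such array among 24 groups of values tested, where chance gives about 1 in 20. The value lies within the background range.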

How the results depend on the processing

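All 4 KO against WT comparisons, interaction included, kept 0 of 6 receptors called by limma or plain analysis of variance under every alternative run. Of 260 alternative counts of called receptors, 259 stayed within 1.5 times the value reported, a rule too wide to register 3 becoming 2 or 4, or 2 becoming 3. Called between the sexes were 2 to 4 receptors in WT, 1 to 3 in KO and 2 to 4 averaged, and 2 to 3 passed the F test. The count beyond that rule was females minus males in KO, where 2 receptors became 1 in a plain analysis of variance with adjusted p and a 20% minimum. It ended the P2ry6 call (adjusted p = 0.0528). That test also ended P2ry4 in WT (adjusted p = 0.103). Of 1340 alternative values of single receptors, 1330 kept their side of the threshold, 3 fell short of it, 7 newly passed and 0 called values changed sign. The sex difference of P2rx4 stayed between -0.39 and -0.33, that of P2ry6 between 0.43 and 0.52 and that of P2ry4 between 0.38 and 0.51. P2rx7 passed for females minus males with quantile normalization (0.27, limma, adjusted p = 0.0478) and without female KO replicate 3 or male KO replicate 1, 2 or 3 (adjusted p from 0.0326 to 0.0499), and read 0.03 as the mean of its 3 probe sets. With the replicate number as a block, 3 receptors were called for the averaged sex difference and 2, in place of 3, in the F test. The block changed no receptor call between KO and WT or between the sexes. The filter on dim probe sets left only P2ry6 and P2rx4, both called. Fitting only the compared groups does not apply to the averages and the F test, which use all 4. The counts over all probe sets moved more: by plain analysis of variance, KO against WT called 7 (adjusted) or 397 (unadjusted) in females beside 21, 3 or 582 in males beside 12, and 242 unadjusted beside 31 for the average. The interaction called 2 or 1188 beside 4. Between the sexes, the plain test called 674 or 2707 in WT beside 1632, 1029 adjusted in KO beside 1862, and 2034 or 2384 averaged beside 4036, and 4454 unadjusted in the F test beside 2490. Without male WT replicate 6, KO against WT in males called 21. The cause of these shifts was not tested.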
